A study of Mus musculus with 6 samples.

Results

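Described here are 8 genes of the circadian clock in mouse liver, chosen by name as the REV-ERB and ROR nuclear receptors and genes that these receptors repress or activate. They are the receptor genes Nr1d1, Nr1d2 and Rora, the activator genes Arntl, Npas2 and Clock, and the repressor genes Nfil3 and Cry1. All 8 were found by symbol among the 22599 gene symbols measured. RNA sequencing was done on 6 liver libraries: 3 titled NcoR1 from NcoR1ΔHep mice, whose genotype is labelled knockdown NcoR1, and 3 titled flox from NcoR1fl/fl mice, labelled WT. All 6 are titled 0 h of ischemia-reperfusion (IR), all carry the same liver ischemia-reperfusion treatment label, and all mice had a light/dark cycle and free access to chow. The labels give no age, sex, strain, promoter driving the deletion or hour of the day at which livers were taken, and separate mice for the libraries are not stated.

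The clock is a loop of transcription. BMAL1 (encoded by Arntl) pairs with CLOCK or NPAS2 and binds E-boxes to switch on the PER, CRY and REV-ERB genes. PER and CRY proteins then block that activation, while REV-ERB-alpha and REV-ERB-beta (Nr1d1 and Nr1d2) repress Arntl by recruiting NCoR1 and the deacetylase HDAC3 to ROR response elements (ROREs), where ROR-alpha (Rora) activates instead. In mouse liver, REV-ERB genes and Arntl peak at opposite times of day, and REV-ERB also sets the rhythm of lipid genes.

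Promoter windows were searched for these elements to show where the members carry them. RefSeq (build GRCm38.p6) gave 11 windows for the 8 members, each from 250 bases before to 50 after an annotated start, with 2 for Arntl and 3 for Clock. The Arntl window is shown because that gene had the largest fold change among the 7 members tested, the Nfil3 window because it holds the same element in the other orientation, and the Cry1 window because it holds E-boxes and no RORE letters. Capitals mark the matched letters. The sequences run 5′ to 3′ on the strand of the gene.
Arntl, chr7:113207261-113207560, plus strand: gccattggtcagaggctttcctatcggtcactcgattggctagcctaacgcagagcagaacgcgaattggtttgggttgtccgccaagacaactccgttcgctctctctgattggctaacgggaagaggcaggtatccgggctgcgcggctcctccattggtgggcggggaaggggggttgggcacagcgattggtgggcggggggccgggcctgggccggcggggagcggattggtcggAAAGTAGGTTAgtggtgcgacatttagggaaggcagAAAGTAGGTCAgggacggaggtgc
Nfil3, chr13:52980990-52981289, minus strand: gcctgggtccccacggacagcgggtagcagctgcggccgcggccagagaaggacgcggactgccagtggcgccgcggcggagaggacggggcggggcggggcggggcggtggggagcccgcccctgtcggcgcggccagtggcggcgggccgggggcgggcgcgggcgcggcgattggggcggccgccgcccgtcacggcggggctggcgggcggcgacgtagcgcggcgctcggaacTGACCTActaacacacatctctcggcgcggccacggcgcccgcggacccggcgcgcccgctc
Cry1, chr10:85185005-85185304, minus strand: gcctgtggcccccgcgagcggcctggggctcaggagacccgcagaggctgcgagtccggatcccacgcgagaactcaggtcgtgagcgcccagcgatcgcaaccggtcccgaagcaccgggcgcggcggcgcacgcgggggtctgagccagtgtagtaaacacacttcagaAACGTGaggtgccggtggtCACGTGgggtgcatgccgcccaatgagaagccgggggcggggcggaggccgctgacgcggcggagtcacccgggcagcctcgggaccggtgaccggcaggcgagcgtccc

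The RORE core AGGTCA, searched on both strands, was found in 4 of the 11 member windows and in 16.3% of all 32817 promoter windows. The 4 were those of Nfil3 and Nr1d2, 1 of the 2 of Arntl and 1 of the 3 of Clock. The extended TAGGTCA, which contains the core, was found in 2 of the 11 (Arntl and Nfil3) and in 2.61% of all windows. In Nfil3 it lay on the opposite strand, 12 bases before the start. In Arntl the letters AAAGTAGGTNA, chosen after that sequence was seen, occurred at -10 and again at 27 bases from the start, and the second copy contains TAGGTCA. That pattern was in 20 of all windows (0.0609%), of which 2 were the overlapping Arntl windows. The E-box CACGTG was found in 1 of the 11, that of Cry1 (7.15% of all windows). The E-prime box CACGTT was found in 2 of the 11, those of Cry1 and Nr1d1 (4.69%). No member window held a D-box (TTATGTAA, TTACGTAA, TTATATAA or TTACATAA), which 1.58% of all windows held. Rora and Npas2 had no match to any of these letters in this window. A match is a description of letters and not a measured binding site.

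**Figure D1:**
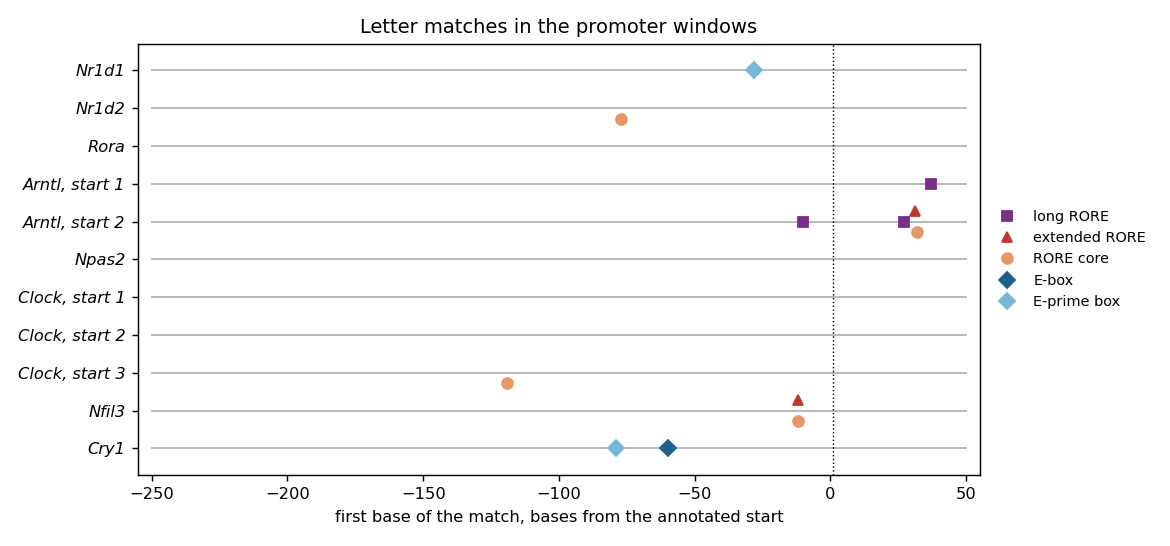
First base of each letter match (x axis, bases from the annotated start) in the 11 promoter windows of the 8 genes (1 row per window). Both RORE copies of Arntl lie within 27 bases of the start of its second window, and Cry1 holds an E-prime box at -79 and an E-box at -60.

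The libraries held 36975231 to 38470468 counts each. Markers of hepatocytes were present in all 6 (8 of 8 tested, summed level 103953 to 106189 CPM, counts scaled to the library total, in NcoR1ΔHep and 96318 to 113787 CPM in flox). NcoR1ΔHep 1 stood apart in sex-linked RNA, with 17138 Xist counts against at most 18 in each other library, and 20 counts over 4 Y-linked genes against at least 4174. No marker of another cell type was called by edgeR, which called 0 of all 13205 tested genes. At an unadjusted edgeR p under 0.05, 2 of 10 liver endothelial and 1 of 8 Kupffer cell and macrophage markers were lower in NcoR1ΔHep. Among all tested genes 1.92% were. At that p, 1 of 3 tested cholangiocyte markers was higher, against 1.43% of tested genes, and no stellate, lymphocyte, neutrophil or erythroid marker was counted. By point estimate all 10 liver endothelial markers were lower in NcoR1ΔHep (summed 109 to 252 CPM in NcoR1ΔHep, 165 to 448 CPM in flox), as were 7 of 8 Kupffer cell and macrophage markers (171 to 436 CPM in NcoR1ΔHep, 283 to 448 CPM in flox), and all 7 stellate cell markers were higher (337 to 442 CPM in NcoR1ΔHep, 269 to 412 CPM in flox). The summed levels of these 3 lists overlapped between the genotypes, and none of their markers was at 0. Of the 4 erythroid markers, 2 were higher and 2 lower in NcoR1ΔHep by point estimate. Their summed level was at 162 to 237.3 CPM in NcoR1ΔHep and at 237.8 to 327 CPM in flox, so the ranges nearly touched. Ncor1 itself was at 5.34, 6.63 and 4.93 FPKM in NcoR1ΔHep and 6.78, 6.70 and 7.72 FPKM in flox (FPKM is fragments per kilobase of gene length, scaled to the library total), and its log2 fold change of -0.31 (SE 0.21) had an edgeR adjusted p of 0.931. The genotypes therefore rest on the labels. In bulk liver, fewer cells of a type and less RNA per cell cannot be told apart.

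The activator genes had lower means in NcoR1ΔHep. Arntl, which encodes BMAL1, averaged 0.0700 ± 0.0390 FPKM in NcoR1ΔHep and 0.697 ± 0.596 FPKM in flox (SD, n = 3 each). Npas2 and Clock, the genes of the partners of BMAL1, averaged 0.0293 ± 0.00359 and 2.32 ± 1.20 FPKM in NcoR1ΔHep and 0.461 ± 0.613 and 4.43 ± 1.98 FPKM in flox. In all 3 genes the flox values were spread wide, with flox 1 and flox 2 above every NcoR1ΔHep library and flox 3 among or below them.

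In NcoR1ΔHep 1, 2 and 3 Arntl was at 0.0305, 0.109 and 0.0709 FPKM, from 22, 78 and 51 counts. In flox 1, 2 and 3 it was at 1.29, 0.702 and 0.0983 FPKM, from 944, 520 and 70 counts. The groups overlapped, because flox 3 lay below NcoR1ΔHep 2. By the exact Poisson 95% intervals of the counts, which cover counting error only, NcoR1ΔHep 2 and flox 3 could not be ordered, and neither could flox 3 and NcoR1ΔHep 3. The highest library, flox 1, was 42.3 times the lowest, NcoR1ΔHep 1.

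By edgeR's quasi-likelihood test the log2 fold change of Arntl was -3.23 (SE 0.84, 95% interval -5.17 to -1.29), 9.40-fold lower in NcoR1ΔHep, with an unadjusted p of 0.00488 and an adjusted p of 0.931. DESeq2 gave the same fold change and an adjusted p of 0.0317. That call was lost without NcoR1ΔHep 1, NcoR1ΔHep 3, flox 1 or flox 2 (DESeq2 adjusted p = 0.506, 0.531, 0.9995 and 0.362), and held without NcoR1ΔHep 2 or flox 3 (0.0107 and 1.30e-08). The edgeR difference was 5.94-fold without flox 1 and 13.4-fold without flox 3. Over the 6 FPKM values, the two-sided exact permutation p was 0.2, and 3 against 3 cannot go below 0.1.

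Npas2, a relative of Clock whose protein can replace CLOCK beside BMAL1, had few reads. In NcoR1ΔHep 1, 2 and 3 it had 5, 4 and 5 counts (0.0313, 0.0252 and 0.0315 FPKM). In flox 1, 2 and 3 it had 187, 37 and 0 counts (1.16, 0.226 and 0 FPKM), where 0 allows up to 3 counts. Taking those 3 counts as the level of flox 3, flox 1 was at least 60.7-fold higher than this library of the same genotype. Npas2 was the 1 member that did not pass the edgeR filter on low counts. Without that filter its log2 fold change was -3.82 (SE 1.19, edgeR adjusted p = 0.838).

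Clock, the usual partner of BMAL1, was at 1.20, 2.17 and 3.60 FPKM in NcoR1ΔHep 1, 2 and 3. It was at 5.36, 5.77 and 2.16 FPKM in flox 1, 2 and 3. The values of flox 1 and flox 2 could not be told apart by counting error and lay above all others, and flox 3 could not be told apart from NcoR1ΔHep 2. The log2 fold change was -0.86 (SE 0.51, 95% interval -2.03 to 0.30, edgeR adjusted p = 0.931). With 1 library left out it was between -1.44 (without NcoR1ΔHep 3, unadjusted p = 0.0175, edgeR adjusted p = 0.626) and -0.51 (without NcoR1ΔHep 1).

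**Figure D2:**
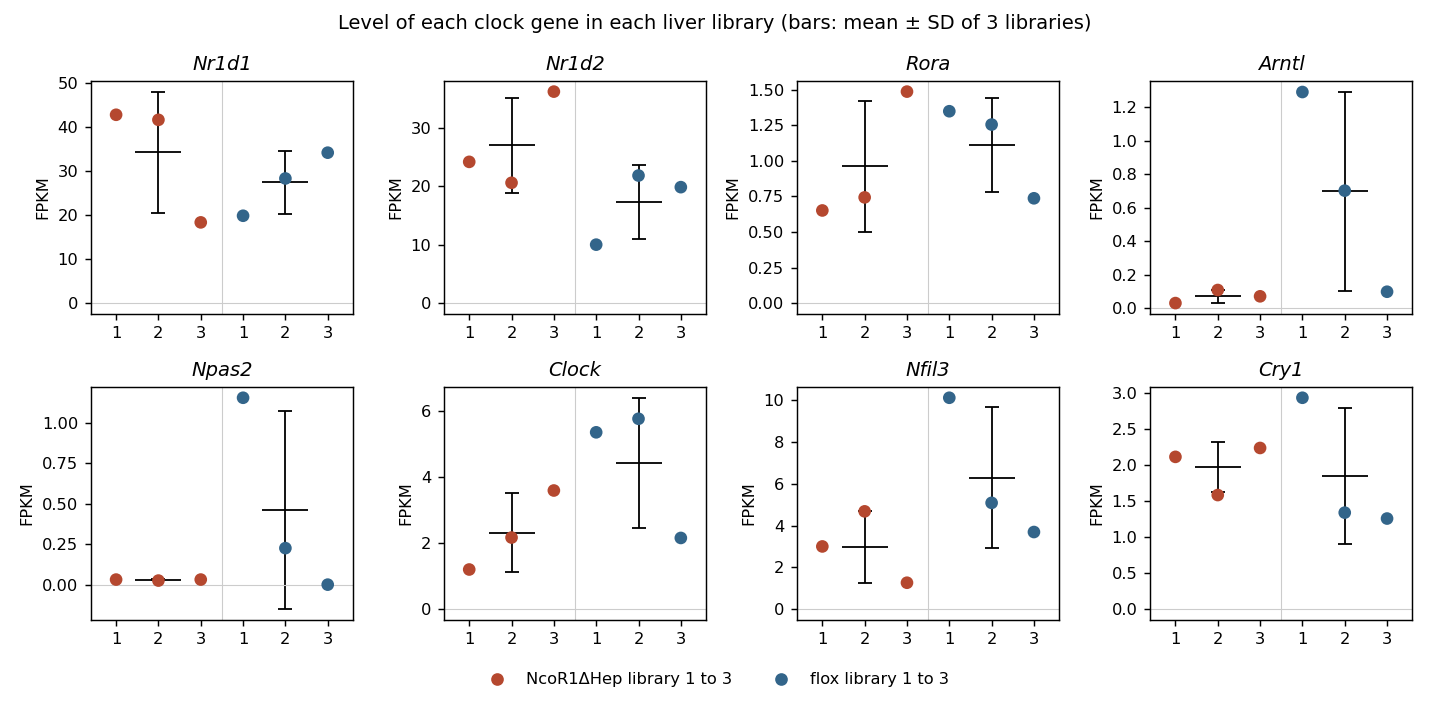
FPKM (y axis, linear) of the 8 genes in each library (x axis, library number), with NcoR1ΔHep left of flox in every panel; points are libraries and bars the mean ± SD of 3. Arntl and Npas2 stay at or below 0.109 FPKM in all NcoR1ΔHep libraries and in flox 3, and the groups overlap in every panel.

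The receptor genes that repress Arntl were at much higher levels. Nr1d1 and Nr1d2 averaged 34.2 ± 13.8 and 26.9 ± 8.16 FPKM in NcoR1ΔHep and 27.4 ± 7.19 and 17.2 ± 6.33 FPKM in flox (SD, n = 3 each), and neither difference passed the test. Rora, the activator at the same elements, averaged 0.961 ± 0.459 FPKM in NcoR1ΔHep and 1.11 ± 0.330 FPKM in flox. Rorb, a relative of Rora outside the list of members, had 1 count in flox 1 and none elsewhere.

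Nr1d1, which encodes REV-ERB-alpha, was at 42.7, 41.6 and 18.3 FPKM in NcoR1ΔHep 1, 2 and 3. It was at 19.8, 28.3 and 34.1 FPKM in flox 1, 2 and 3. NcoR1ΔHep 3 and flox 1 held the lowest values and could not be ordered by counting error. The log2 fold change was 0.29 (SE 0.35, 95% interval -0.51 to 1.09, edgeR adjusted p = 0.938). The 3′ end of Nr1d1 overlaps the thyroid hormone receptor gene Thra on the other strand by 1075 bases in GENCODE M21. The strand setting of the counting is not given, so reads there cannot be told apart. Thra had 235 to 401 counts in the NcoR1ΔHep libraries and 273 to 689 in the flox libraries, against at least 1889 for Nr1d1 in every library.

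Nr1d2, which encodes REV-ERB-beta, was at 24.1, 20.6 and 36.1 FPKM in NcoR1ΔHep 1, 2 and 3. It was at 9.99, 21.8 and 19.8 FPKM in flox 1, 2 and 3. The lowest library was flox 1 and the highest NcoR1ΔHep 3, and the other 4 libraries lay between 19.8 and 24.1 FPKM. The log2 fold change was 0.66 (SE 0.40, 95% interval -0.27 to 1.59, edgeR adjusted p = 0.931), between 0.28 (without NcoR1ΔHep 3) and 0.92 (without flox 2) with 1 library left out. Nr1d1 was above Nr1d2 in 5 libraries (1.30 to 2.02 times), while in NcoR1ΔHep 3 it was at 0.506 times Nr1d2.

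The sum of both REV-ERB genes, formed after their values were seen and not tested, was at 66.9, 62.1 and 54.5 FPKM in NcoR1ΔHep and 29.8, 50.1 and 53.9 FPKM in flox. Every NcoR1ΔHep library lay above every flox library, by a narrow margin of NcoR1ΔHep 3 over flox 3. With trimmed-mean (TMM) scaling the lowest NcoR1ΔHep value was 60.4 and the highest flox value 54.8, and with median-of-ratios scaling these were 60.9 and 54.0. With merged exon lengths from GENCODE M21 these were 48.9 and 48.4. Counting error of the sum was not worked out. Among the 13205 tested genes, 7.56% had groups that did not overlap in FPKM, and no single member did. That share is of single genes and gives no rate for a sum of 2 genes chosen after their values were seen.

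Rora was at 0.652, 0.744 and 1.49 FPKM in NcoR1ΔHep 1, 2 and 3. It was at 1.35, 1.26 and 0.737 FPKM in flox 1, 2 and 3. The high and low libraries crossed the genotypes, with NcoR1ΔHep 3 the highest and NcoR1ΔHep 1 the lowest. The log2 fold change of -0.14 (SE 0.41, 95% interval -1.08 to 0.79, edgeR adjusted p = 0.976) had the other sign without NcoR1ΔHep 1, NcoR1ΔHep 2 or flox 2.

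Nfil3 and Cry1 are repressors further along the loop. Nfil3, which silences D-box genes, was at 3.002, 4.68 and 1.27 FPKM in NcoR1ΔHep 1, 2 and 3. It was at 10.1, 5.08 and 3.69 FPKM in flox 1, 2 and 3. Here NcoR1ΔHep 2 lay above flox 3 and could not be told apart from flox 2 by counting error. The log2 fold change was -1.05 (SE 0.47, 95% interval -2.12 to 0.02), with an unadjusted p of 0.0535 and an edgeR adjusted p of 0.931. It was -1.54 without NcoR1ΔHep 2 and -0.64 without flox 1.

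Cry1, whose protein blocks CLOCK and BMAL1, was at 2.11, 1.58 and 2.24 FPKM in NcoR1ΔHep 1, 2 and 3. It was at 2.93, 1.34 and 1.26 FPKM in flox 1, 2 and 3. NcoR1ΔHep lay inside the flox range in all 3 libraries. The log2 fold change was 0.17 (SE 0.34, 95% interval -0.61 to 0.94, edgeR adjusted p = 0.959). The relative Cry2, not a member, had 0.38 (SE 0.22, edgeR adjusted p = 0.931).

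Of the 7 members tested, edgeR called 0 at an adjusted p of 0.05, as it did among all tested genes (0%), and limma-voom also called 0. At an unadjusted p under 0.05, edgeR counted 1 member (Arntl) against 3.35% of tested genes (443 of 13205). Arntl was lower in NcoR1ΔHep, as were 1.92% of tested genes at that p, while 1.43% were higher and no member was. DESeq2 called 1 of 8 members, again Arntl, against 0.0246% of genes (5 of 20289). The exact permutation p of the FPKM means, two-sided over 20 splits, was 0.2 for Nr1d2, Arntl and Nfil3 and between 0.3 and 0.9 for the other 5 members. By point estimate 3 tested members were higher and 4 lower in NcoR1ΔHep, with a median log2 fold change of -0.14, beside 0.03 over all tested genes. Without NcoR1ΔHep 1, the library that stood apart in sex-linked RNA, the edgeR log2 fold changes were 0.17 for Nr1d1, 0.81 for Nr1d2, 0.13 for Rora, -2.84 for Arntl, -0.51 for Clock, -1.01 for Nfil3 and 0.19 for Cry1. Most endothelial and macrophage markers given above were also lower in NcoR1ΔHep by point estimate, with none called, and their part in these values was not tested.

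**Figure D3:**
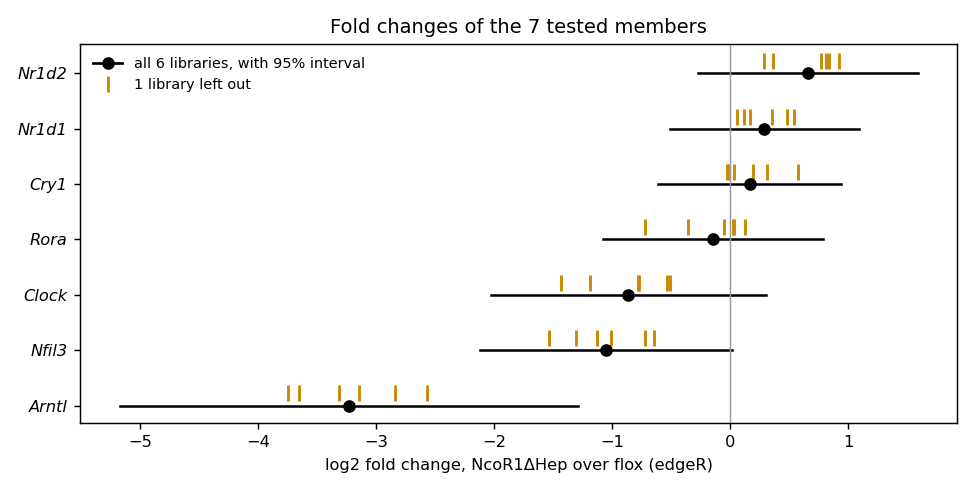
edgeR log2 fold change, NcoR1ΔHep over flox (x axis), of the 7 tested members (rows), with 95% intervals as black lines; orange ticks are the values with 1 library left out. The interval of Arntl, -5.17 to -1.29, lies below 0, and those of the other 6 members include 0.

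Libraries of the same genotype differed in most of these genes. The pooled SD within genotypes of log2 CPM was 1.48 for Arntl, larger than in 98.6% of the 13205 tested genes, whose median was 0.38. Clock (0.85, larger than in 90.1%), Nfil3 (0.76, 86.4%), Nr1d2 (0.64, 79.5%), Rora (0.63, 78.1%), Nr1d1 (0.54, 70.4%) and Cry1 (0.46, 60.7%) also lay above that median. For Arntl the flox libraries alone had an SD of 1.87 and the NcoR1ΔHep libraries one of 0.95. Flox 1 held the highest value in 4 members (Arntl, Npas2, Nfil3 and Cry1) and the lowest in Nr1d2.

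The balance of activator to repressor within a library does not depend on scaling between libraries, but its size depends on the gene lengths used. Nr1d1 had 1402, 383 and 258 times the FPKM of Arntl in NcoR1ΔHep 1, 2 and 3. It had 15.4, 40.3 and 347 times the FPKM of Arntl in flox 1, 2 and 3. Flox 3 thus lay inside the NcoR1ΔHep range. Clock had 39.5, 20.02 and 50.7 times the FPKM of Arntl in NcoR1ΔHep 1, 2 and 3, and 4.15, 8.23 and 21.98 times in flox 1, 2 and 3. With merged exon lengths from GENCODE M21 in place of those behind the FPKM, the ratio of Nr1d1 to Arntl was 492, 134 and 90.6 in NcoR1ΔHep 1, 2 and 3 and 5.39, 14.1 and 122 in flox 1, 2 and 3. The ratio of Clock to Arntl was then 5.77 to 14.6 in NcoR1ΔHep and 1.20 to 6.33 in flox. A change of length multiplies a ratio by the same factor in every library, so the order of the libraries could not change.

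Between genes, these levels depend on the length used. The length implied by the authors' FPKM was 51763 bases for Rora, 3.96 times the 13071 bases of its merged GENCODE M21 exons, 19267 bases for Arntl (2.56 times) and 4463 for Nfil3 (2.20 times). For the other 5 members it was 0.738 to 1.19 times. In CPM per kilobase of merged exons, a scale added after the levels were seen, Rora averaged 3.81 ± 1.82 in NcoR1ΔHep and 4.41 ± 1.31 in flox (SD, n = 3 each). This was above Cry1 at 2.36 ± 0.413 in NcoR1ΔHep and 2.20 ± 1.12 in flox, whereas in FPKM the mean of Rora was below that of Cry1. On either scale Nr1d1 had the highest mean and Npas2 the lowest in both genotypes. Within a library, Nr1d1 was 1.77, 2.03 and 0.507 times Nr1d2 by merged exons in NcoR1ΔHep 1, 2 and 3, and 1.99, 1.30 and 1.72 times in flox 1, 2 and 3. The comparison of a gene between libraries does not depend on its length.

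Profiles across the 6 libraries were compared by the root mean square (RMS) difference of centred log2 CPM, as a description over libraries that share the 2 genotypes. The profile of Arntl itself had an RMS of 1.84. Its mirror image was matched most closely by Per3 (RMS difference 0.28), Noct (0.44), Usp2 (0.54), Per2 (0.63) and the unnamed Gm30284 (0.64), out of 13205 genes. Per3 and Per2 are genes of the PER repressor family, Noct encodes the rhythmic enzyme nocturnin, and Usp2 a deubiquitinase. Gm30284 had 4 and 5 counts in flox 1 and flox 2, so its low values rest on few reads. Per3 was at 7.14, 1.73 and 1.49 FPKM in NcoR1ΔHep 1, 2 and 3 and at 0.135, 0.267 and 2.14 FPKM in flox 1, 2 and 3. Its low libraries, flox 1 and flox 2, were the libraries in which Arntl was high.

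The genes most like Arntl were 3930402G23Rik (RMS difference 0.67), Trim56 (0.76), Megf9 (0.77), Ntn4 (0.78) and Rnf125 (0.78). Trim56 and Rnf125 encode ubiquitin ligases and Ntn4 a netrin. Rnf125 was at 12.0, 31.5 and 30.0 FPKM in NcoR1ΔHep 1, 2 and 3 and at 116.8, 90.9 and 21.1 FPKM in flox 1, 2 and 3. 3930402G23Rik had 1 to 10 counts in NcoR1ΔHep and 13 to 89 in flox, so its profile rests on few reads. Trim56 had 21 to 37 counts in NcoR1ΔHep, and Megf9 and Ntn4 each had 13 in NcoR1ΔHep 1, so their low values do too. Among the members, Clock came at position 115 (RMS difference 1.22) of the genes most like Arntl and Nfil3 at position 206 (1.32). Nr1d2 and Nr1d1 came at positions 969 (1.54) and 1849 (1.63) of those most like the mirror image of Arntl. A gene level across the libraries would be at 1.84, so neither was a close mirror by this measure. The measure counts the size of a profile as well as its shape. A gene that varied less than Arntl, as Nr1d1 did (RMS 0.46), could not come near whatever its shape. The genes most like Nr1d1 were Jazf1 (RMS difference 0.08), Nme4 (0.12), Shc4 (0.13), Tmem107 (0.13) and Gstm3 (0.16), beside an RMS of 0.46 for Nr1d1 itself. Gstm3 belongs to a family of similar genes, so its counts are uncertain. Across the libraries Shc4 had 5 to 13 counts and Tmem107 12 to 28.

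**Figure D4:**
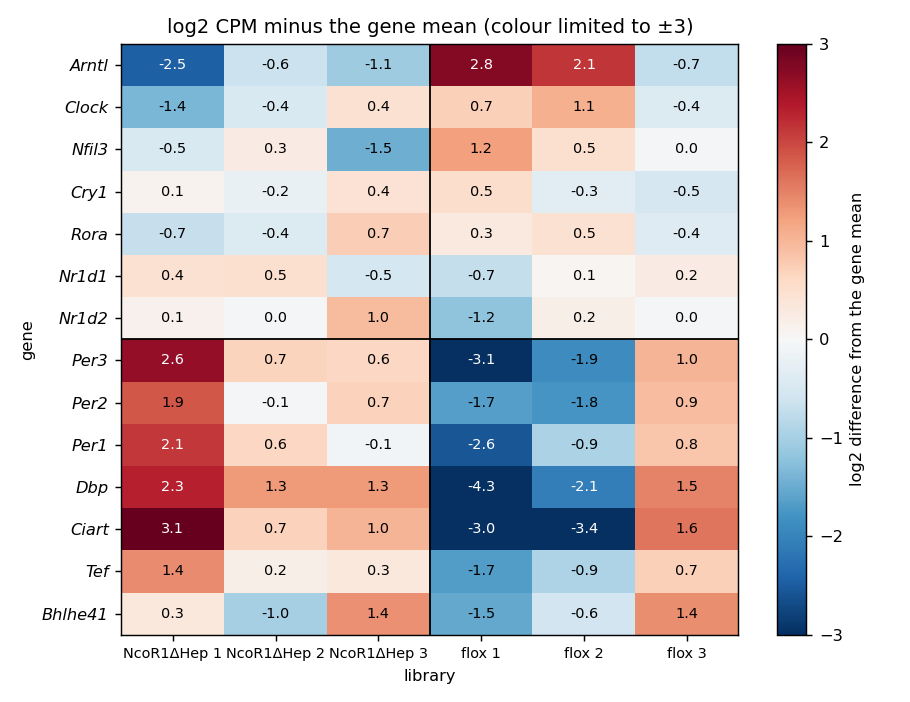
log2 CPM minus the mean of the gene (colour, and number in each cell) for 7 members (above the line) and 7 other clock genes (below it) in the 6 libraries (columns). Arntl is high in flox 1 and flox 2 (2.8 and 2.1) where Per3 is low (-3.1 and -1.9), and flox 3 resembles the NcoR1ΔHep libraries in both genes.

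Other clock genes were taken from a list of 20, all tested. By point estimate 18 were higher and 2 lower in NcoR1ΔHep, with a median log2 fold change of 0.81 beside 0.03 over all tested genes. Over all 13205 tested genes, 7069 were higher and 6136 lower. Dbp, Per1, Per2, Per3, Ciart, Tef and Bhlhe41 were each below their mean in flox 1 and flox 2 and above it in flox 3. The 18 are therefore not separate observations. edgeR called 0 of the 20, and 1 had an unadjusted p under 0.05, against 3.35% of all tested genes. That gene was Nampt, which encodes the rate-limiting enzyme of NAD salvage and is driven by CLOCK and BMAL1 in mouse liver. Nampt was at 18.9, 16.8 and 17.3 FPKM in NcoR1ΔHep 1, 2 and 3, against 12.6, 12.9 and 13.3 FPKM in flox 1, 2 and 3. The groups did not overlap, as in 7.56% of tested genes (log2 fold change 0.47, SE 0.20, edgeR adjusted p = 0.931). Arntl2, the relative of Arntl, had 32, 11 and 14 counts in NcoR1ΔHep and 10, 5 and 9 in flox (log2 fold change 1.26, SE 0.58, edgeR adjusted p = 0.931). Noct was at 14.8, 3.82 and 11.2 FPKM in NcoR1ΔHep 1, 2 and 3 and at 0.448, 0.660 and 6.26 FPKM in flox 1, 2 and 3. The E-box target Dbp, which was picked with its levels known, reached 92.6, 41.9 and 37.6 FPKM in NcoR1ΔHep 1, 2 and 3 and at 0.948, 3.76 and 47.2 FPKM in flox 1, 2 and 3.

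Of 16 genes outside the clock that REV-ERB or ROR receptors are reported to regulate, 7 were higher and 9 lower in NcoR1ΔHep, with a median log2 fold change of -0.29 beside 0.03 over all tested genes. edgeR called 0, and 2 had an unadjusted p under 0.05, both lower, against 3.35% of all tested genes (1.92% lower). Cdkn1a, which encodes the cyclin-dependent kinase inhibitor p21, was at 0.970, 1.37 and 0.908 FPKM in NcoR1ΔHep 1, 2 and 3 and at 7.61, 4.46 and 2.15 FPKM in flox 1, 2 and 3, and its groups were among the 7.56% of tested genes with no overlap. Insig2, which encodes a protein that holds the lipid regulator SREBP in the endoplasmic reticulum, was at 10.4, 19.6 and 30.2 FPKM in NcoR1ΔHep 1, 2 and 3 and at 71.6, 57.0 and 21.6 FPKM in flox 1, 2 and 3. Its log2 fold change was -1.24 (SE 0.53, edgeR adjusted p = 0.931). Both genes were highest in flox 1 and next in flox 2, as Arntl was. Apoc3, an apolipoprotein gene, had 0.77 (SE 0.43, edgeR adjusted p = 0.931), with 5409 FPKM in NcoR1ΔHep 1 and 1557 to 1937 FPKM in the other libraries.

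Gps2 and Tbl1x encode subunits of the NCoR corepressor complex through which REV-ERB acts, and neither passed the test. Gps2 had a log2 fold change of 0.62 (SE 0.34, edgeR adjusted p = 0.931), with 8.20 FPKM in NcoR1ΔHep 1 and 2.88 to 4.29 FPKM in the other libraries. Tbl1x was at 4.38, 8.70 and 6.95 FPKM in NcoR1ΔHep 1, 2 and 3 and at 8.40, 8.50 and 8.80 FPKM in flox 1, 2 and 3, with a log2 fold change of -0.33 (SE 0.29, edgeR adjusted p = 0.931).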

How the data were processed

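RNA from 6 mouse liver libraries was measured by RNA sequencing, with libraries made from total RNA with a SMARTer kit, per the labels' protocols. The authors deposited whole-number counts per gene symbol and FPKM values, 1 column per library; FPKM is scaled by a gene length and the library total. The submitters' processing notes name GRCm38, mm10 and hg38 without a role; no aligner, counter or strandedness is stated there or in the labels, so these are not given. Counts were filtered (filterByExpr, minimum count 10, minimum total 15), which left 13205 genes, and scaled by TMM. NcoR1ΔHep was compared with flox (n = 3 each) by the quasi-likelihood F-test of edgeR 4.0.16 (R 4.3.3), with Benjamini-Hochberg adjustment over all tested genes and a threshold of 0.05. Fits were checked on simulated data. DESeq2 1.42.0, limma 3.58.1 (voom, and log2(FPKM + 1) with FPKM at least 0.5 in 3 libraries), other factors and filters, a replicate block and leaving out each library were alternatives. Since separate mice are not stated, p-values cover library-to-library spread only, which may be technical. The named genes were the 8 members, Ncor1, the relatives Rorb, Arntl2 and Cry2, the 3 smallest p in each list, and the 5 nearest profiles (log2 CPM, prior count 2). The members and lists were chosen with earlier results of these data known. Some results of the lists are not reported here.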

Additional observations from a re-analysis of the deposited data

How the results depend on the processing

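Across 24 alternatives (22 for Arntl, which a filter on FPKM removed in 2), the log2 fold changes of Arntl (-3.75 to -0.60), Clock (-1.45 to -0.50) and Nfil3 (-1.55 to -0.63) stayed negative and those of Nr1d1 (0.06 to 0.54) and Nr1d2 (0.27 to 0.96) positive. The value of -0.60 for Arntl came from log2(FPKM + 1), a scale that understates changes of low genes. Rora had the other sign without NcoR1ΔHep 1, NcoR1ΔHep 2 or flox 2 (0.13, 0.033 and 0.021 with edgeR; 0.13, 0.046 and 0.049 with DESeq2), and Cry1 without NcoR1ΔHep 3 or flox 3 (-0.021 and -0.025; -0.037 and -0.033); the cause was not tested. With 1 library left out, edgeR gave -0.72 to 0.13 for Rora and -0.025 to 0.58 for Cry1. edgeR and limma called 0 genes and 0 members under every alternative run. DESeq2 called 5 genes and 1 member, on all genes and on those of the edgeR filter. With 1 library left out, a choice made after seeing the data, DESeq2 called 0 to 72 genes (26 without NcoR1ΔHep 2, 18 without NcoR1ΔHep 3, 72 without flox 3, 0 without any other) and 0 to 2 members, the 2 being Arntl and Npas2 without flox 3. The titles number the libraries of both genotypes 1 to 3. Same-numbered libraries did not deviate together (r = 0.02, -0.33 and -0.47 across genes), so the numbers were not taken as pairs. The largest r between genotypes was 0.56, for NcoR1ΔHep 3 and flox 2. These libraries also had the highest shares of counts in mitochondrial genes, 10.4% and 8.80%, against 4.50% to 6.66% in the others. The part of that share in the levels was not tested. With the replicate block edgeR called 0 genes and 0 members, and the log2 fold changes were 0.28 for Nr1d1, 0.71 for Nr1d2, -0.27 for Rora, -2.81 for Arntl, -0.97 for Clock, -1.12 for Nfil3 and 0.22 for Cry1. Low counts limit Npas2, and Arntl in NcoR1ΔHep.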
